A study of Rattus norvegicus with 23 samples.

Results

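The 9 genes described here encode transporters that carry organic anions, organic cations, drugs and uremic toxins across the cells of the renal proximal tubule. They were chosen by symbol and matched to the gene symbols and Ensembl gene IDs of the deposited tables, 9 of the 32552 gene IDs counted, and all 9 were found. Of these, 5 take solutes up into the cell (Slc22a6, Slc22a8, Slc22a7, Slc22a2 and Slco4c1) and 4 send them out (Slc47a1, Abcc2, Abcc4 and Abcg2). RNA was sequenced from the kidney and the heart of 13-week-old Sprague-Dawley rats, collected 4 weeks after surgery. Animals of the Sham group had sham surgery, those of the NX group had a partial (5/6) nephrectomy, and those of the AVF+NX group had the same nephrectomy together with an arteriovenous fistula joining the jugular vein end-to-side to the carotid artery. There was no group with a fistula alone, so in these data the effect of the fistula is seen only on top of the nephrectomy. Each kidney group held 4 libraries, and the heart groups held 3 Sham, 4 NX and 4 AVF+NX libraries, labelled as biological replicates.

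Organic anions and cations reach the urine by secretion across the proximal tubule cell. Uptake carriers of the blood-facing membrane (OAT1, encoded by Slc22a6, OAT3 by Slc22a8, OCT2 by Slc22a2) bring them in, the anion carriers in exchange for dicarboxylates. Exporters of the luminal membrane (MATE1, encoded by Slc47a1, and the ATP-driven pumps MRP2, MRP4 and BCRP, encoded by Abcc2, Abcc4 and Abcg2) release them into the tubular fluid. Slc22a7 encodes OAT2, another organic anion carrier, and Slco4c1 encodes an organic anion carrier that moves digoxin, thyroid hormone and uremic toxins.

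Library totals ran from 9069354 to 18782085 counted reads in kidney, and from 9605973 to 48079431 in heart, where the AVF+NX libraries (11889483 to 48079431) were all deeper than the Sham libraries (9894716 to 11866042). Kidney NX replicate 4 stood apart from its group: it was the deepest kidney library, 4.16% of its reads were mitochondrial against 9.37% to 9.63% in the other 3 NX libraries, and its chi-square per degree of freedom against those 3 was 52.5 to 62.6, against 12.6 to 28.0 among them. In kidney the members had between 349 and 10438 reads in a library. The tissue label was checked against 18 proximal tubule marker genes (among them Lrp2, Slc34a1 and Cubn). None was at 0 in kidney, but Slc5a12 alone was at 0 in heart, so presence does not mark the segment. Their summed level was 29972 to 37584 CPM (counts scaled to a fixed total) in sham kidney and 571.6 to 794.5 CPM in sham heart. This shows that the segment was sampled and not that the 9 transporters were confined to it.

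In the deposited annotation, whose genome build is not given in the sources used here, Slc22a8 (chr1:224800252-224818482) and Slc22a6 (chr1:224824799-224833259) lie next to each other on the plus strand, 6316 bases apart, with 0 genes wholly between them. Slc22a2 (chr1:48317995-48360261, minus strand) and Abcc2 (chr1:263554453-263613252, plus strand) are on the same chromosome. Slc22a7 lies at chr9:16924520-16931766 on the plus strand, Slco4c1 at chr9:104299277-104350308 on the minus strand, and Slc47a1 at chr10:47632192-47666921 on the minus strand. Abcc4 lies at chr15:103696557-103927592 on the minus strand and Abcg2 at chr4:88832178-88890621 on the plus strand. Slc22a2, Slco4c1, Abcc2 and Abcc4 each overlap 1 annotated gene on the opposite strand. The strand setting of the counting was not stated, and the effect of these overlaps on the counts was not tested.

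The promoters of 7 of the 9 members were in the RefSeq promoter table (build GRCr8), and Slc22a6 and Slc47a1 were not. The 250 bases before the start are shown 5′ to 3′ for the uptake genes with the largest differences after each operation and for Abcc4, the exporter that changed when the fistula was added. Capitals mark CG dinucleotides.
Slc22a8: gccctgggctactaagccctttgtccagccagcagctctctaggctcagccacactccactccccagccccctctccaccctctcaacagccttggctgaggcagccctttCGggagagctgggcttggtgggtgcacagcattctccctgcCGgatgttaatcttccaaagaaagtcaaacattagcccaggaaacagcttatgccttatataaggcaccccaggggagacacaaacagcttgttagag
Slc22a7: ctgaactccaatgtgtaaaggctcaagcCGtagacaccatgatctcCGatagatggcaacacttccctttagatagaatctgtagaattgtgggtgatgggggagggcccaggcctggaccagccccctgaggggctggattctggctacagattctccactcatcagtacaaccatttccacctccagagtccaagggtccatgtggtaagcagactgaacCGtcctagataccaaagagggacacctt
Abcc4: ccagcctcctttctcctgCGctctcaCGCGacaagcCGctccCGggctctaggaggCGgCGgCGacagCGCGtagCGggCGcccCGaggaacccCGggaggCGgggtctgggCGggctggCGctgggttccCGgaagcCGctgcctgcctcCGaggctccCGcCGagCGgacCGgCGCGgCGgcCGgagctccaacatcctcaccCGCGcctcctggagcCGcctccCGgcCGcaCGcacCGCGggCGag
These windows are chr1:214927034-214927283 (plus strand), chr9:22045248-22045497 (plus strand) and chr15:102181365-102181614 (minus strand). The Abcc4 window held 37 CG dinucleotides and 77.6% G and C, against 2 and 56.0% for Slc22a8 and 3 and 52.0% for Slc22a7. The median of the 33469 promoters of the table was 5 CG dinucleotides and 51.2% G and C, and 98.1% of promoters held fewer CG dinucleotides than Abcc4. Among the other members with a promoter, Abcg2 held 22, Slco4c1 17, Slc22a2 5 and Abcc2 4. The letters CAAAGTCCA (a form of the HNF4 site) were searched on both strands of the full windows of the table, which also hold 50 bases after the start. They were in 0.391% of all promoters of the table and in 0 of the 7 member promoters, which says only that these letters are not in these windows.

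Levels of different genes were compared as TPM (transcript abundance scaled to a fixed total), which divides each count by the gene's annotated length. In sham kidney Slc22a8 was the most abundant member, at 632 ± 83.8 TPM (SD, n = 4), and Slc22a6 followed at 545 ± 56.5 TPM. The ranges of these neighbours overlapped (515 to 715 against 469 to 596 TPM), although Slc22a8 was above Slc22a6 in 4 of 4 libraries. Slc47a1 came next, at 267 ± 20.2 TPM, with no overlap with either neighbour in the order. Slc22a2 (100 ± 18.7 TPM) and Slc22a7 (86.3 ± 6.20 TPM) were not separated by their spread, and each was the higher one in 2 of 4 libraries. Abcc4 (43.6 ± 3.23 TPM) and Abcg2 (40.8 ± 6.01 TPM) overlapped as well, with Abcc4 higher in 3 of 4 libraries. Slco4c1 (20.8 ± 1.78 TPM) and Abcc2 (17.4 ± 1.60 TPM) were the lowest, and their ranges did not meet. The 5 uptake members together gave 1384 ± 134 TPM and the 4 efflux members 368 ± 27.7 TPM, a ratio of 3.76 ± 0.276 (SD, n = 4) computed library by library.

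**Figure D1:**
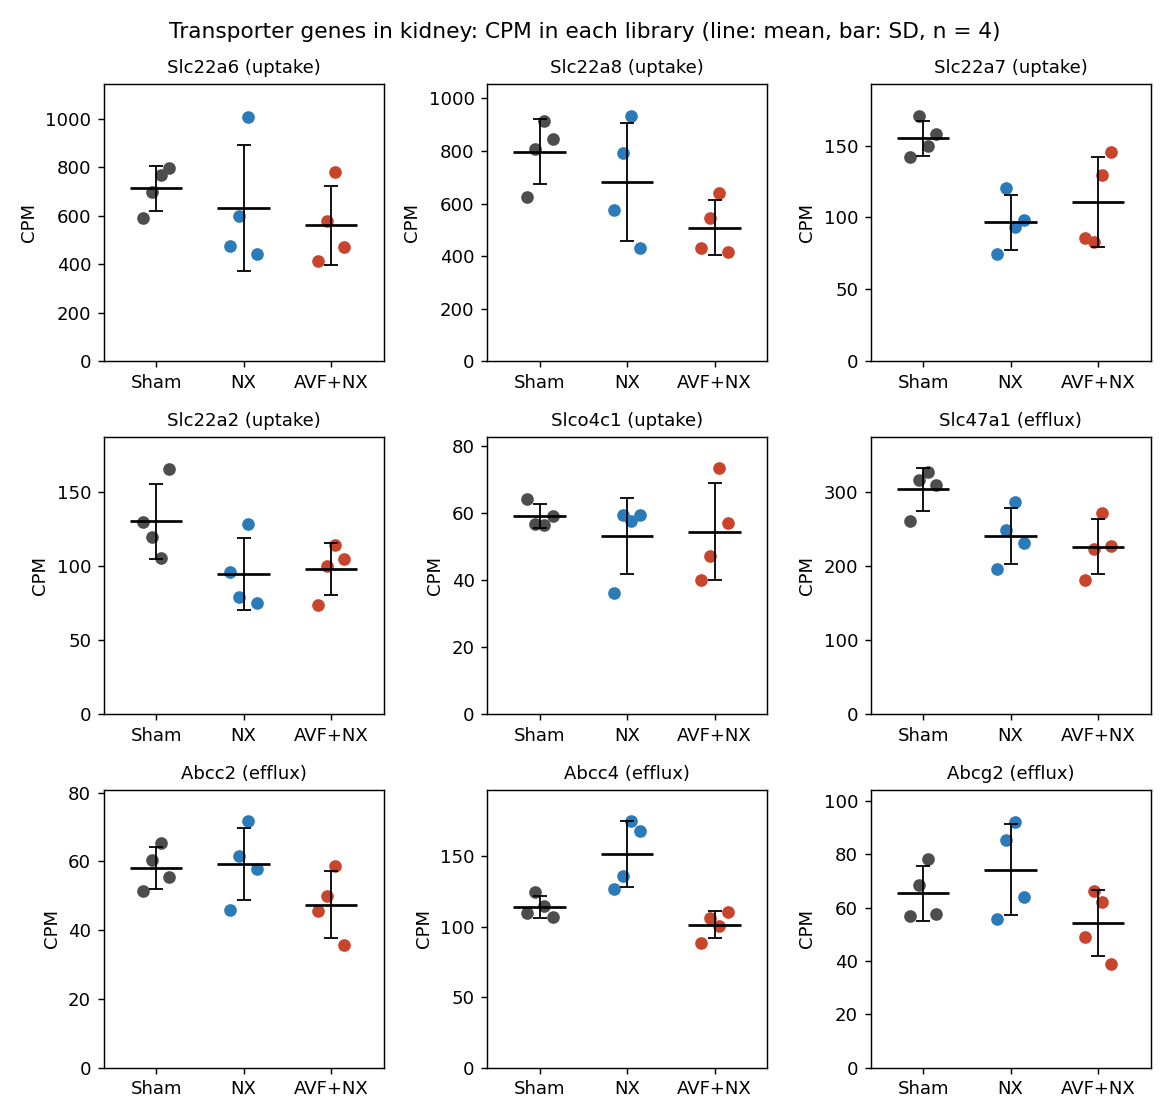
CPM of each member (vertical axis, from 0) in the 4 Sham, 4 NX and 4 AVF+NX kidney libraries, with the mean as a line and the SD as a bar. Abcc4 is the panel in which all NX libraries, at 127 to 175 CPM, sit above all libraries of the other groups.

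Within a gene, levels are given below as CPM, the count scaled to a fixed total, on library totals adjusted by edgeR's TMM factors. Comparisons come from edgeR's quasi-likelihood test fitted to all 14322 genes tested in kidney, with p-values adjusted over all of them, and a change was called at an adjusted p below 0.05. NX vs Sham and AVF+NX vs Sham share the 4 sham libraries, so their results are not independent.

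In the kidney remnant of the NX group none of the 9 transporters passed the test. An unadjusted p below 0.05 was seen for 4 of 9 members and for 2488 of the 14322 genes tested. In that comparison 0.859% of all genes were called higher and 0.447% called lower. DESeq2 called 2 members and limma-voom 0, with 835 and 595 genes called in all. The uptake side was below Sham in 5 of 5 members and the median log2 fold change of the 5 was -0.22, against 0.02 over all genes tested. The efflux side was split, with 1 of 4 members below Sham and a median of 0.10.

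The anion carrier gene Slc22a7 had the largest log2 fold change of the members after nephrectomy. It read 142, 171, 150 and 158 CPM in Sham and 74.3, 121, 93.5 and 98.6 CPM in NX. All NX libraries were below all Sham libraries. The log2 fold change was -0.68 (SE 0.18, adjusted p = 0.0882), which did not pass. The authors' deposited table gives -0.70 with an adjusted p of 0.000255.

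The exporter gene Abcc4 stood on the other side. It read 110, 124, 115 and 107 CPM in Sham and 127, 136, 175 and 168 CPM in NX. Every NX library was above every Sham library. The log2 fold change was 0.41 (SE 0.11, adjusted p = 0.0828), which also did not pass. In the authors' deposited table it is 0.40 with an adjusted p of 0.0365. Slc22a7 and Abcc4 were thus the 2 of 9 members whose NX and Sham values did not overlap, and 9.38% of all genes tested had groups that did not overlap in either direction.

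The 2 most abundant members were not called and had a wide spread in NX. Slc22a6 read 589, 697, 766 and 798 CPM in Sham and 476, 600, 1008 and 440 CPM in NX, where replicate 3 was above all sham libraries. Its log2 fold change was -0.18 (SE 0.26, adjusted p = 0.777), and -0.04 without NX replicate 4. Over all fits without 1 library it ran from -0.50 to -0.04. Slc22a8 read 623, 806, 912 and 844 CPM in Sham and 576, 792, 934 and 429 CPM in NX. The groups overlapped, with a log2 difference of -0.22 (SE 0.22, adjusted p = 0.649), and -0.05 without NX replicate 4, its lowest library. For Slc22a8 the fits without 1 library ran from -0.41 to -0.05. The cation route gave values of similar size for uptake and export. Slc22a2 read 130, 120, 106 and 166 CPM in Sham and 96.1, 79.6, 129 and 75.0 CPM in NX, a log2 difference of -0.46 (SE 0.19, adjusted p = 0.235). Slc47a1 read 261, 317, 327 and 310 CPM in Sham and 197, 249, 287 and 231 CPM in NX, a log2 difference of -0.33 (SE 0.13, adjusted p = 0.226). Both overlapped with Sham. Slco4c1, Abcc2 and Abcg2 had log2 fold changes of -0.15, 0.03 and 0.18, each with an adjusted p above 0.6.

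AVF+NX differs from Sham by both the nephrectomy and the fistula. In this comparison Slc47a1 (MATE1) fell, and it was the single member of 9 to pass the test. Its log2 fold change against NX was -0.09, which did not pass. All 9 members were below Sham in their log2 fold change, with a median of -0.41 over the 5 uptake genes and -0.28 over the 4 efflux genes, against -0.01 over all genes. Of all genes tested 9.18% were called lower and 15.9% higher, so 1 of 9 members called lower is near the background. Slc47a1 read 182, 224, 272 and 228 CPM in AVF+NX against the 4 sham values given above, and the highest AVF+NX library was above the lowest sham library. The log2 fold change was -0.43 (SE 0.14, adjusted p = 0.0354), which is 1.34-fold lower. The call was lost when AVF+NX replicate 1, 2 or 4 or Sham replicate 2, 3 or 4 was left out, with adjusted p-values up to 0.103 over the libraries left out. It was also lost with log2 total count as a covariate (adjusted p = 0.0512).

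Slc22a8 (OAT3) had the largest log2 fold change of the members in this comparison. It read 431, 547, 639 and 417 CPM in AVF+NX, and the highest of these was above the lowest sham library. The log2 fold change was -0.65 (SE 0.22), and its adjusted p of 0.0501 missed the threshold. It passed in 7 of the 9 alternative settings other than leaving out a library, with DESeq2 at an adjusted p of 0.0171 and limma-voom at 0.00654. In the fits without 1 library it passed in 4 of 12 and missed in 8 of 12, with adjusted p-values from 0.0215 to 0.134. The authors' deposited table gives -0.65 with an adjusted p of 0.000725. Slc22a7 read 86.1, 82.8, 129 and 146 CPM, a log2 difference of -0.48 (SE 0.18, adjusted p = 0.0714), and 1 of these libraries lay within the sham range of 142 to 171 CPM. Slc22a7 passed in 3 of the 9 alternative settings, with DESeq2 at an adjusted p of 0.0404 and limma-voom at 0.0271. It passed in 1 of 12 fits without 1 library. In the authors' deposited table Slc22a7 has -0.49 with an adjusted p of 0.0333.

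Slc22a6 read 412.5, 576, 782 and 472 CPM in AVF+NX (log2 fold change -0.35, SE 0.26, adjusted p = 0.352). Slc22a2 read 73.6, 100, 114 and 105 CPM (log2 fold change -0.41, SE 0.19, adjusted p = 0.135). Both groups of values overlapped with Sham. The remaining differences were smaller, at -0.29 for Abcc2, -0.27 for Abcg2, -0.17 for Abcc4 and -0.12 for Slco4c1, with adjusted p-values from 0.189 to 0.68. None of the 9 members had AVF+NX and Sham values that did not overlap, whereas 27.6% of all genes tested did. Summed over the uptake genes the level was 1022 ± 176 TPM in AVF+NX and 1205 ± 296 TPM in NX, and over the efflux genes 295.5 ± 24.9 and 349 ± 47.8 TPM (SD, n = 4 each).

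Between the groups that differ by the fistula, Abcc4 (MRP4), an exporter of cyclic nucleotides, urate and anionic drugs, fell. It read 88.3, 106, 100 and 110 CPM in AVF+NX against 127, 136, 175 and 168 CPM in NX, so that every fistula library was below every NX library. The log2 fold change was -0.58 (SE 0.11, adjusted p = 0.0109), or 1.496-fold lower. The mean was 101 ± 9.57 CPM in AVF+NX, 151.5 ± 23.4 in NX and 114 ± 7.61 in Sham (SD, n = 4 each). Of all genes tested 1.20% were called lower and 4.87% higher, and 11.8% had groups that did not overlap in either direction. Abcc4 was the 1 member of 9 to be called and the 1 whose groups did not overlap. It was called in 9 of 9 alternative settings and in 12 of 12 fits without 1 library, with adjusted p-values from 0.0001 to 0.0455. The authors' deposited table gives -0.59 with an adjusted p of 0.000915.

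The other exporters were below NX without passing. Abcg2 read 49.1, 66.3, 62.2 and 39.0 CPM in AVF+NX and 55.8, 85.3, 92.0 and 64.0 CPM in NX, a log2 difference of -0.45 (SE 0.19, adjusted p = 0.176). Abcc2 read 45.5, 50.1, 58.7 and 35.6 CPM against 46.0, 61.6, 71.7 and 57.7 CPM, a log2 difference of -0.32 (SE 0.15, adjusted p = 0.237). Both overlapped with NX. Slc47a1 also overlapped with NX, with a log2 difference of -0.09 (SE 0.135, adjusted p = 0.7305). On the uptake side Slc22a8 differed from NX by -0.42 on the log2 scale (SE 0.22, adjusted p = 0.277), and the other 4 lay between -0.17 and 0.20. Slco4c1 read 36.2 CPM in NX replicate 1, the lowest of its 12 kidney libraries, and 57.8 to 59.6 CPM in the other 3 NX libraries.

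**Figure D2:**
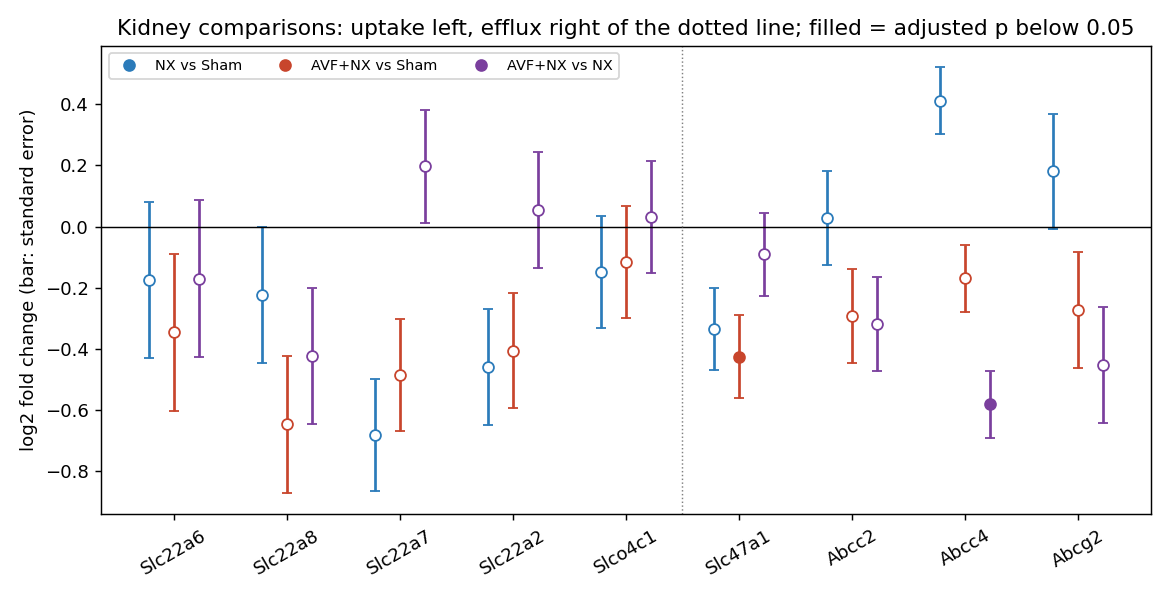
Log2 fold change (vertical axis) of each member in the 3 kidney comparisons, with the standard error as a bar. Filled points passed the test, which were Slc47a1 for AVF+NX vs Sham and Abcc4 for AVF+NX vs NX, while Abcc4 lies above 0 for NX vs Sham.

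Cell type markers moved with the same groups. Of 18 proximal tubule markers, 1 fell in NX vs Sham, 10 fell in AVF+NX vs Sham (5 to 14 in the fits without 1 library) and 0 passed in AVF+NX vs NX. In the same order 18, 17 and 12 of the 18 were below 0, with medians of -0.38, -0.70 and -0.36. Their summed level ran from 29972 to 37584 CPM in Sham, from 19687 to 30598 in NX and from 17702 to 26153 in AVF+NX. Lrp2, the endocytic receptor megalin, had log2 fold changes of -0.47 (adjusted p = 0.151) in NX vs Sham, -0.81 (adjusted p = 0.00293) in AVF+NX vs Sham and -0.35 (adjusted p = 0.207) in AVF+NX vs NX. Slc34a1, the phosphate carrier, fell in AVF+NX vs Sham by 0.89 on the log2 scale (adjusted p = 0.016), and the injury marker Havcr1 rose there by 3.88 (adjusted p = 0.00493). In NX vs Sham Slc34a1 and Havcr1 had -0.40 (adjusted p = 0.412) and 1.81 (adjusted p = 0.281), and in AVF+NX vs NX -0.49 (adjusted p = 0.232) and 2.06 (adjusted p = 0.1). Markers of the distal convoluted tubule and collecting duct lay lower in AVF+NX than in NX, as Abcc4 did: 3 of 10 fell, namely Slc12a3, the thiazide-sensitive sodium chloride carrier (-0.74, adjusted p = 0.0166), the sodium channel subunit gene Scnn1g (-0.60, adjusted p = 0.019) and the calcium channel gene Trpv5 (-0.69, adjusted p = 0.0448), and 10 of 10 were below 0 with a median of -0.46. These 3 are named because they passed, a choice made after their values were seen. In NX vs Sham 8 of these 10 were above 0 and 0 passed (median 0.16). Their summed level ran from 2117 to 2589 CPM in Sham, from 2581 to 3249 in NX and from 1592 to 2439 in AVF+NX. Of 6 thick ascending limb markers 0 passed in AVF+NX vs NX and 6 were below 0, with a median of -0.39. The part of these segments in the Abcc4 result was not tested. Immune and matrix markers went the other way: 8 of 8 macrophage, 7 of 7 T and B cell and 6 of 7 fibroblast and matrix markers rose in AVF+NX vs Sham, and 7 of 8, 7 of 7 and 2 of 7 rose in AVF+NX vs NX. The summed T and B cell level was 3.93 to 6.20 CPM in Sham and 194 to 361 CPM in AVF+NX. In bulk tissue, fewer cells of a type and less RNA in each cell cannot be told apart. The part of the immune and matrix markers in the transporter results was not tested.

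A proximal tubule index, the mean log2 CPM of the 18 markers, was 9.94 ± 0.197 in Sham, 9.51 ± 0.331 in NX and 9.28 ± 0.267 in AVF+NX (SD, n = 4 each). Over the 12 kidney libraries with group means taken off, Slc47a1 followed the index most closely of the members (Pearson r = 0.956), then Slc22a6 (0.936), Slc22a8 (0.889) and Abcc2 (0.812). Slc22a7 (0.439), Abcc4 (0.442) and Slc22a2 (0.475) followed it least. These are descriptions over libraries that share their scaling and depth. The lowest Sham library (9.65) was above the highest AVF+NX library (9.63), so the index and the group cannot be told apart in AVF+NX vs Sham. With the index as a covariate, genes called in that comparison went from 3594 to 351 over all genes, and the Slc47a1 difference between AVF+NX and Sham was 0.05 (SE 0.10, adjusted p = 0.874) and that of Slc22a8 was 0.11 (SE 0.17, adjusted p = 0.818). For Abcc4 between AVF+NX and NX it was -0.52 (SE 0.11, adjusted p = 0.0195), so this call was kept.

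**Figure D3:**
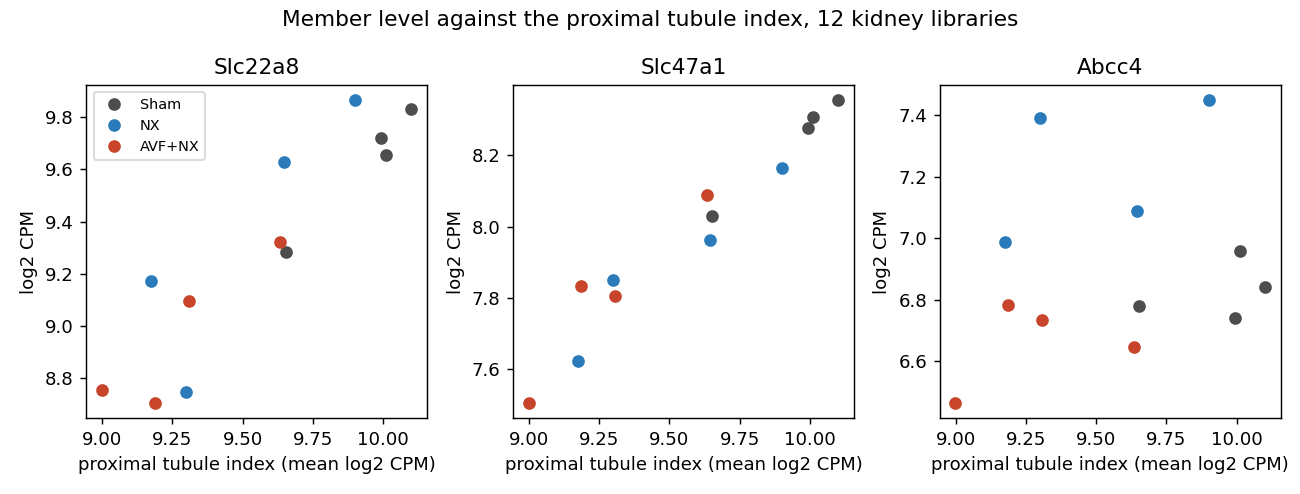
Log2 CPM of Slc22a8, Slc47a1 and Abcc4 (vertical axes) against the proximal tubule index (horizontal axis, mean log2 CPM of 18 markers) in the 12 kidney libraries, coloured by group. Slc47a1 lies close to 1 line across all groups, while the NX libraries of Abcc4 lie above the AVF+NX libraries at the same index.

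The members were also similar to one another to different degrees. With group means taken off, Slc22a6 and Slc22a8, the neighbouring genes, had r = 0.903 over the 12 libraries, and Abcc2 and Abcg2 had 0.919. Abcc4 and Slc22a8 had 0.093, and Slc22a7 and Abcg2 had -0.008. Among 10002 kidney genes with a symbol and at least 10 CPM, those most like Slc22a6 included Shmt2 (r = 0.982) and Pdzk1 (0.981). Those most like Slc22a8 were Hpd, Ass1 and Tst (0.987 to 0.973), those most like Slc47a1 were RGD1309534, Lrpap1 and Ghitm (0.977 to 0.974), and those most like Abcc2 were Sord, Acmsd and Akr1a1 (0.970 to 0.951). Slco4c1 was most like Nr1d1 (0.974), then Aqp1 and Plcxd2, and Abcg2 was most like RGD1562392, F13b and Morc4 (0.966 to 0.947). Abcc4 was most like Tsnax (0.927), Itfg1 and Get4, Slc22a7 like Aaed1 (0.946) and Akap17b, and Slc22a2 like RGD1311575 (0.940), Sema3b and Sec24c.

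Of 27 other uptake transporters of organic ions and drugs, 22 were tested in kidney. In NX vs Sham 2 fell and 0 rose: Slco2a1, a prostaglandin carrier, by 0.55 and Slc15a2, a peptide and antibiotic carrier, by 0.76 on the log2 scale (adjusted p = 0.0463 and 0.0499). Neither call was stable to leaving out 1 library: Slco2a1 was lost in 8 of 12 such fits and Slc15a2 in 9 of 12, with adjusted p-values up to 0.144 and 0.151. In AVF+NX vs Sham 5 fell and 1 rose, with a median of -0.38, and 1 to 9 fell in the fits without 1 library. Among those that fell were Slc22a23 (-0.80), Slc15a2 (-0.59), Slc22a25 (-0.55) and Slco2a1 (-0.49), and Slco2b1 rose by 0.37. The number that rose was 0 to 2 in the fits without 1 library. In several of these fits the Slco2b1 call was lost (adjusted p up to 0.118). It was also lost with no count filter, and with log2 total count or the proximal tubule index as a covariate. In AVF+NX vs NX 0 of 22 passed, and Slc22a17 had -0.29 (adjusted p = 0.16).

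Of 17 other efflux transporters, 12 were tested, and the 2 that fell in AVF+NX vs Sham were Abcc6 (-0.58, adjusted p = 0.00312) and Slc17a2 (-0.50, adjusted p = 0.0312). In NX vs Sham these had -0.40 (adjusted p = 0.0967) and -0.32 (adjusted p = 0.309) and 0 of 12 passed. The fistula comparison also had 0 of 12, led by Abcb1b, which encodes a P-glycoprotein (0.79, adjusted p = 0.235), and Slc17a4 (-0.31, adjusted p = 0.332).

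Of 15 genes that supply the dicarboxylate and sodium gradients or the membrane scaffold, 7 fell in AVF+NX vs Sham and 0 rose, and 2 to 9 fell in the fits without 1 library. Among them were the mitochondrial dicarboxylate carrier Slc25a10 (-0.81), the dicarboxylate carrier Slc13a3 (-0.64), the sodium-proton exchanger Slc9a3 (-0.56), the scaffold genes Pdzk1 (-0.55) and Slc9a3r2 (-0.30) and the sulfate carrier Slc26a1 (-0.47), with adjusted p-values from 0.00818 to 0.0471. In NX vs Sham 0 of 15 passed, led by Slc25a10 (-0.76, adjusted p = 0.0694) and Slc9a3r1 (-0.46, adjusted p = 0.118). Between AVF+NX and NX 0 of 15 passed, led by Slc9a3r2 (-0.19, adjusted p = 0.22) and Msn (0.18, adjusted p = 0.238).

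Of 18 transcription factors and receptors known to act on transporter genes, 7 fell and 1 rose in AVF+NX vs Sham, and 4 to 7 fell in the fits without 1 library. Hnf4a, a regulator of proximal tubule and liver genes, fell by 0.72 (adjusted p = 0.00731). Ppara (-0.74), Nr1h4, the bile acid receptor FXR (-0.62), and Nr1i2, the xenobiotic receptor PXR (-0.79), also fell, and Cebpb rose by 1.31. In AVF+NX vs NX, Ppargc1a fell by 0.26 (adjusted p = 0.0463) and no other gene of the list passed. This call was lost in 11 of 12 fits without 1 library (adjusted p up to 0.135) and with total count scaling, no count filter, 2 groups only or the proximal tubule index as a covariate. In NX vs Sham 0 of 18 passed, led by Ahr (-0.38, adjusted p = 0.0898) and Nr1h4 (-0.48, adjusted p = 0.129).

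In heart the uptake carriers were at or near the counting floor. Slc22a7 had 0 reads in all 11 heart libraries, Slco4c1 at most 1, Slc22a8 at most 2, Slc22a6 at most 3 and Slc22a2 at most 8. The organs were compared on the TMM scaling of the fit of all 23 libraries, which differs from the scaling within heart used for the other heart CPM. On it a total of 3 reads over the 3 sham hearts corresponds to 0.114 CPM, and a count of 0 allows a level up to that value, for counting error only. Relative to that limit, Slc22a8 was at least 5559-fold, Slc22a7 at least 1077-fold and Slco4c1 at least 405-fold higher in kidney. Slc22a6, with 3 reads over the 3 sham hearts, gave a ratio of 4956 (95% exact counting interval 1696 to 24035), and Slc22a2, with 5 reads, 537 (230 to 1655). The exporters differed less, and the Abcc2 ratio was 71.2 (44.4 to 122). Slc47a1, Abcg2 and Abcc4, the 3 members that also passed the filter on low counts in heart alone, were called higher in kidney, as were 37.9% of all genes tested. The log2 difference was 7.08 (SE 0.32) for Slc47a1, 5.87 (SE 0.30) for Abcg2 and 1.63 (SE 0.14, adjusted p = 2.77e-10) for Abcc4. These sizes depend on the scaling, and with total count scaling they were 7.70, 6.49 and 2.25.

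**Figure D4:**
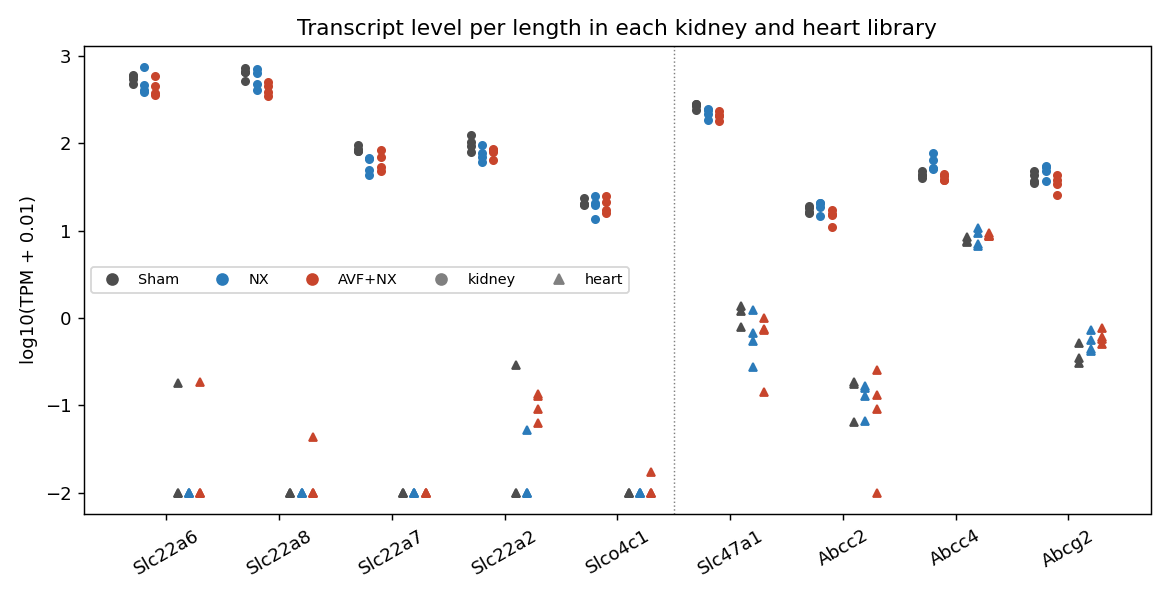
Log10 of TPM plus 0.01 (vertical axis) for each member in every kidney (circles) and heart (triangles) library, coloured by group. The 5 uptake genes left of the dotted line are at or near 0 TPM in heart, and Abcc4 is the member with the smallest gap between the organs.

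Abcc4 had the highest heart CPM of the 9 members, at 22.3 CPM in the median sham library. It read 21.7, 25.0 and 22.3 CPM in Sham, 19.5, 27.6, 24.6 and 20.4 in NX and 25.2, 23.4, 23.5 and 27.2 in AVF+NX. All 3 groups overlapped. Its log2 fold change was 0.01 (SE 0.13) in NX vs Sham, 0.11 (SE 0.13) in AVF+NX vs Sham and 0.09 (SE 0.12) in AVF+NX vs NX, with adjusted p-values of 0.96, 0.529 and 0.663. Slc47a1 (2 to 54 reads) and Abcg2 (6 to 61 reads) also passed the filter on low counts in heart. Of these 3 members, 0 passed in any heart comparison and 0 had an unadjusted p below 0.05, and DESeq2 and limma-voom also called 0. In heart 0% of 12794 genes were called in NX vs Sham (2662 at an unadjusted p below 0.05, 336 called by DESeq2 and 2269 by limma-voom), 34.1% in AVF+NX vs Sham and 0.336% in AVF+NX vs NX. For Abcg2 the heart log2 fold changes were 0.38, 0.59 and 0.21 and for Slc47a1 -0.90, -0.72 and 0.18 in the same order, with standard errors from 0.28 to 0.55.

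In heart AVF+NX vs Sham, 14 of the other uptake transporters were tested, and 1 rose and 2 fell. Of 11 support genes 2 rose and 2 fell, and of 13 regulators 3 rose and 3 fell. Over all genes tested 34.1% were called in this comparison. The genes with the smallest p of each list are named. Slc22a17 fell by 1.07 (adjusted p = 0.00305) and Slc28a2, a nucleoside carrier, rose by 0.74 (adjusted p = 0.00316). Slc25a10 fell by 1.076 and Msn rose by 0.44 (adjusted p = 0.00534 and 0.00778), and Keap1 fell by 0.52 while Nfe2l2 rose by 0.50 (adjusted p = 0.00597 and 0.00619). With log2 total count as a covariate the calls of these 6 named genes were lost, with adjusted p-values from 0.161 to 0.386. In that fit the log2 fold change was -0.58 for Slc25a10 and -0.61 for Slc22a17, and 2 genes were called over all genes. Depth and group largely went together here, because every AVF+NX heart library was deeper than every Sham one. The shallowest AVF+NX library (11889483 reads) was close to the deepest Sham library (11866042 reads). The part of depth in these calls was not tested apart from the group. Among other efflux genes 0 of 5 passed, led by Abcc10 (-0.72, adjusted p = 0.0753) and Abcb1b (-0.23, adjusted p = 0.168). In the other heart comparisons none of these lists had a called gene, and the smallest p-values belonged in NX vs Sham to Slc28a2, Slc22a17, Abcc10, Abcc3, Slc25a10, Ezr, Ppargc1a and Ahr. In AVF+NX vs NX they belonged to Slc22a17, Slc28a2, Abcc1, Abcb1b, Msn, Atp1b1, Esrra and Keap1.

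The kidney and heart effects were compared directly in a fit of all 23 libraries. For AVF+NX vs NX, the Abcc4 difference between the organs was -0.70 (SE 0.17, adjusted p = 0.0448), where 1.12% of all genes tested were called in either direction. The call was kept in the fits without heart NX replicate 2 or 3 or kidney NX replicate 1 or 2 and lost in the other 19 of 23 fits without 1 library, with adjusted p-values up to 0.112, and with total count scaling (-0.63, adjusted p = 0.0528). For NX vs Sham it was 0.33 (SE 0.18, adjusted p = 0.354) and for AVF+NX vs Sham -0.37 (SE 0.18, adjusted p = 0.135), where 0.158% and 27.9% of genes were called. Abcg2 gave -0.97 (SE 0.42, adjusted p = 0.0846) in AVF+NX vs Sham, and Slc47a1 passed in none of these 3 comparisons (adjusted p = 0.573, 0.885 and 0.616). The other 6 members had too few heart reads for a difference between the organs to be read.

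**Figure D5:**
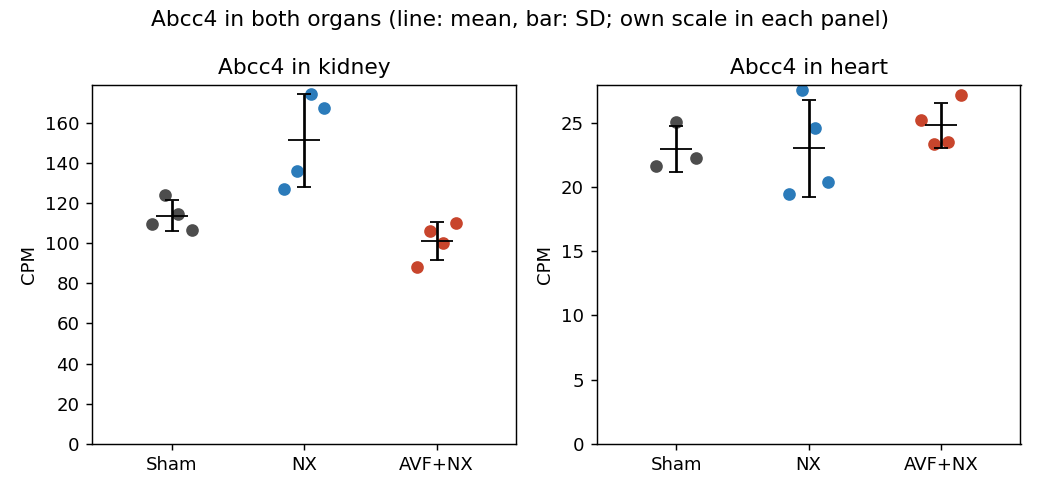
Abcc4 CPM (vertical axes from 0, each organ on its own scale) in the kidney (4 libraries a group) and heart (3 Sham, 4 NX and 4 AVF+NX libraries), with mean and SD. In kidney the NX libraries lie above both other groups, and in heart all groups lie between 19.5 and 27.6 CPM.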

How the data were processed

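The labels describe poly(A)-selected, strand-specific libraries sequenced as paired ends. Per the submitters' processing notes, Trimmomatic 0.36, STAR 2.5.2b and featureCounts of Subread 1.5.2 were used, while the genome build and strand setting were not stated there. The authors deposited raw read counts per gene for 23 libraries. Their comparison tables, deposited per organ, hold log2 fold changes, p-values and adjusted p-values. The members and gene lists were chosen with earlier results of these data known.

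Counts were filtered with filterByExpr (14322 genes in kidney, 12794 in heart, 15222 over both), scaled by TMM and tested with edgeR 4.0.16 quasi-likelihood in R 4.3.3, in 1 fit per organ and 1 fit of all 23 libraries for the organ comparisons, with Benjamini-Hochberg adjustment over all genes. The fit was tested on simulated data. Alternatives were DESeq2 1.42.0, limma 3.58.1 voom with quality weights, RLE and total count scaling, no filter, 2 groups only, a replicate block, log2 total count or the proximal tubule index as a covariate, and leaving out each library. Kidney members had 349 to 10438 reads a library. Replicates were compared, and none agreed within sampling noise.

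Of each companion list the text names the called genes with the smallest p (up to 6, in heart up to 2) or, with none called, the 2 smallest; Lrp2, Slc34a1 and Havcr1 are always named in kidney, and the 3 most similar genes of each member are by Pearson r of log2 CPM (prior count 2) after removing group means. Of the marker lists, liver, adrenal, adipose, red blood cell, podocyte, endothelium, cardiomyocyte, late proximal, thick ascending limb and distal lists were also counted: in AVF+NX vs Sham 1 of 2, 0 of 1, 2 of 4, 0 of 3 and, for endothelium, 1 of 7 rose, with 0 of 2 cardiomyocyte genes called, and 3 of 6 podocyte, 2 of 7 endothelial, 2 of 6 late proximal, 3 of 6 thick ascending limb and 3 of 10 distal genes fell. Tubular injury markers rose in 8 of 9. A few genes and 1 motif that these rules select are not reported here.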

Additional observations from a re-analysis of the deposited data

Results flagged for a closer look

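Among 33 member-by-group sets of 4 libraries checked, 1 held a library far from the rest, and chance gives about 1 in 20. This was Slco4c1 in NX kidney, where replicate 1 read 36.2 CPM and the other 3 libraries 57.8 to 59.6 CPM, a gap of 0.922 of the whole range and above Dixon's critical value for 4 samples. Without that library the log2 fold change of Slco4c1 in NX vs Sham was -0.003 in place of -0.15, and it was not called in either fit. Its proximal tubule index of 9.17 was the lowest of the NX libraries.

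The Abcc4 effect of the added fistula differed between the organs by -0.701 on the log2 scale (edgeR, adjusted p = 0.0448), with -0.58 in kidney and 0.09 in heart. This call was lost in 19 of 23 fits without 1 library and with total count scaling. All 4 kidney AVF+NX libraries were below all 4 NX libraries, and the heart groups overlapped. Of all genes tested in kidney, 11.8% had AVF+NX and NX groups that did not overlap in either direction.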

How the results depend on the processing

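Of 1071 recomputed member values, 986 kept their direction and their side of the threshold, 27 lost a call, 25 gained one and 33 changed sign. The number of members called in NX vs Sham kidney (0) was 2 with DESeq2 and 1 in a fit of the 2 groups only. In AVF+NX vs Sham (1) it was 2 with RLE size factors, total count scaling or 2 groups only, 3 with DESeq2 and limma-voom, 0 with the proximal tubule index, and 0 to 2 without 1 library. The organ difference for AVF+NX vs NX (1) was 0 with total count scaling and 0 to 1 without 1 library.

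Replicate numbers were not taken as pairs, because the labels state no shared animal or day. Same-number correlations in kidney ran from -0.075 to 0.382, and different-number ones from -0.346 to 0.180. The kidney values 0.200, 0.213, 0.229, 0.243, 0.261 and 0.382 were all between libraries of the same number (replicates 1, 3 and 4). They lay above every different-number value. Same-number values of replicate 2 ran from -0.059 to 0.009. In heart the highest value, 0.224, was between libraries of different numbers. Whether the numbers mark a shared animal, day or batch was not tested. With a replicate block, 3 members were called in NX vs Sham, 5 in AVF+NX vs Sham and 2 in AVF+NX vs NX, and 1 in the organ difference for AVF+NX vs Sham.

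With the proximal tubule index as a covariate the sign changed in NX vs Sham for Slc22a8 (0.251), Slc22a6 (0.369), Slco4c1 (0.110), Slc34a1 (0.089) and Havcr1 (-0.053); in AVF+NX vs Sham for Slc22a8 (0.113), Slc22a6 (0.540), Abcc2 (0.185), Abcg2 (0.312), Slco4c1 (0.266), Slc47a1 (0.047), Abcc4 (0.001), Pdzk1 (0.031), Slc26a1 (0.074) and Slc13a3 (0.149); and in AVF+NX vs NX for Slc22a6 (0.170) and Slc47a1 (0.070). With log2 total count as a covariate it changed for Slc22a2 in kidney AVF+NX vs NX (-0.016) and, in heart, Abcg2 (-0.008) and Abcb1b (0.052), and with limma-voom for Slco4c1 in kidney AVF+NX vs NX (-0.013). Leaving out 1 library gave, in kidney, Abcc2 -0.076 to 0.130 (NX vs Sham), Slco4c1 -0.291 to 0.006 (AVF+NX vs Sham), and in AVF+NX vs NX Slc22a2 -0.047 to 0.233, Slc22a6 -0.358 to 0.148, Slco4c1 -0.128 to 0.154 and Slc47a1 -0.178 to 0.001. In heart it gave Abcc4 -0.088 to 0.097 (NX vs Sham) and Slc47a1 -0.163 to 0.663 (AVF+NX vs NX), and for the organ difference in AVF+NX vs Sham Slc47a1 -0.059 to 0.363. None of these values was called, and the cause was not tested. DESeq2 gave no adjusted p for 2 heart values, Abcg2 and Slc47a1 in NX vs Sham.

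Genes called overall varied from 10 to 835 in NX vs Sham kidney (187), from 351 to 4977 in AVF+NX vs Sham (3594) and from 267 to 1647 in AVF+NX vs NX (870). Limits are 3 or 4 animals a group, bulk tissue, and 0 to 8 heart reads for the uptake genes.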
